A study of Homo sapiens with 6 samples.

Results

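The genes described here are 10 members of the growth factor receptor system that carries the epidermal growth factor (EGF) signal, chosen by their symbols from 28491 genes with deposited counts. They are the ERBB receptors EGFR, ERBB2 and ERBB3, the ERBB ligands AREG, EREG, TGFA and HBEGF, the growth factor receptors MET and IGF1R, and the feedback inhibitor ERRFI1. All 10 were in both deposited tables, and all 10 were among the 16260 genes that passed the filter on low counts. Poly(A) RNA of HCT116 cells, an established human colorectal carcinoma line, was collected for sequencing 48 h after cells had received an RBM47 plasmid (RBM47-OE, 3 libraries) or a control plasmid (NC, 3 libraries). RBM47 is an RNA-binding protein, and the study asked what its overexpression changes in these cells. Both groups were the same parental line and received Lipofectamine 2000, so transfection itself is common to them. The sources used here describe the plasmid, the medium and the library kit differently: the labels give a pcDNA3.1 vector with a Flag tag, and the methods a pIRES-hrGFP-1a vector. A transient transfection leaves some cells without plasmid, and a library averages over all of them, so that a large change in few cells and a small change in many cannot be told apart. Nothing in the labels says whether the 3 libraries of a group came from separate cultures, so p-values measure the spread between these libraries, which may be technical.

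The libraries held between 26792409 and 35477983 counts on genes. RBM47 itself, measured as fragments per kilobase of gene scaled to all mapped fragments of the library (FPKM), stood at 1.91, 2.33 and 1.94 in NC replicates 1, 2 and 3 and at 131.3, 130.4 and 127.0 in the RBM47-OE replicates. Reads of the plasmid and of the gene itself were not told apart. The 8 markers of colorectal epithelium looked up were present in every library, with a summed level of 2025 to 2206 FPKM in NC and 1875 to 2128 in RBM47-OE. Of 9 markers of blood, endothelial, fibroblast and liver cells, 7 were in the count table, with a summed level of 1.56 to 1.99 FPKM in NC and 1.50 to 1.86 in RBM47-OE, mostly from COL1A1. Across 16229 genes, the difference of each RBM47-OE library from the NC mean went down as exonic GC content went up, with a Spearman's rho of -0.41, -0.59 and -0.67 in replicates 1, 2 and 3. In the NC libraries rho was -0.16, 0.13 and 0.04. A second fit that took out each library's trend with GC content (the GC offset) is therefore given beside the first.

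As background, receptors of the ERBB family are single-pass tyrosine kinases that pair up when a ligand binds to their outer part. The paired receptors phosphorylate each other and recruit adaptors that switch on RAS, the MAP kinase cascade and phosphoinositide signalling. The ligands are made as membrane-bound precursors that ADAM proteases cut free, and ERRFI1 (also called MIG6) binds the kinase domain of the activated receptor and blocks it. In colorectal cancer AREG and EREG are the best-known ligands of the family, since their levels are used to foresee the response to antibodies against EGFR.

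Of the 10 genes, 3 rose and 1 fell in RBM47-OE at an adjusted p-value under 0.05 (edgeR's quasi-likelihood test with Benjamini-Hochberg adjustment over all genes tested). MET, the receptor of hepatocyte growth factor, rose by 32.5%, EREG by 18.6%, ERRFI1 to 1.20 times its NC level, and ERBB2 fell to 0.864 times its NC level. In the same fit 19.1% of all genes tested were called higher and 16.9% lower, so the share of members called was close to that of genes at large. The members changed little. The median size of their log2 fold change was 0.19, against 0.24 over all genes tested, and none of the 10 passed the study's thresholds (p under 0.01 with no adjustment, together with more than a 1.5-fold difference), which 2.38% of all genes did. In edgeR 5 of the 10 had an unadjusted p-value under 0.05, and DESeq2 likewise put 0 past the study's thresholds. For 6 of the 10 the groups did not overlap in CPM (counts scaled to library size after TMM), and the same held for 46.5% of all genes tested. With the GC offset, MET was the 1 member called higher and AREG the 1 called lower, where 5.97% of all genes were called higher and 8.57% lower. With library totals in place of TMM scaling, 5 members were called higher and 0 lower, and over all genes the share of higher genes among those called went from 53.1% to 66.2%. That share was 64.4% with limma on log2(FPKM + 1) and 41.1% with the GC offset.

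**Figure D1:**
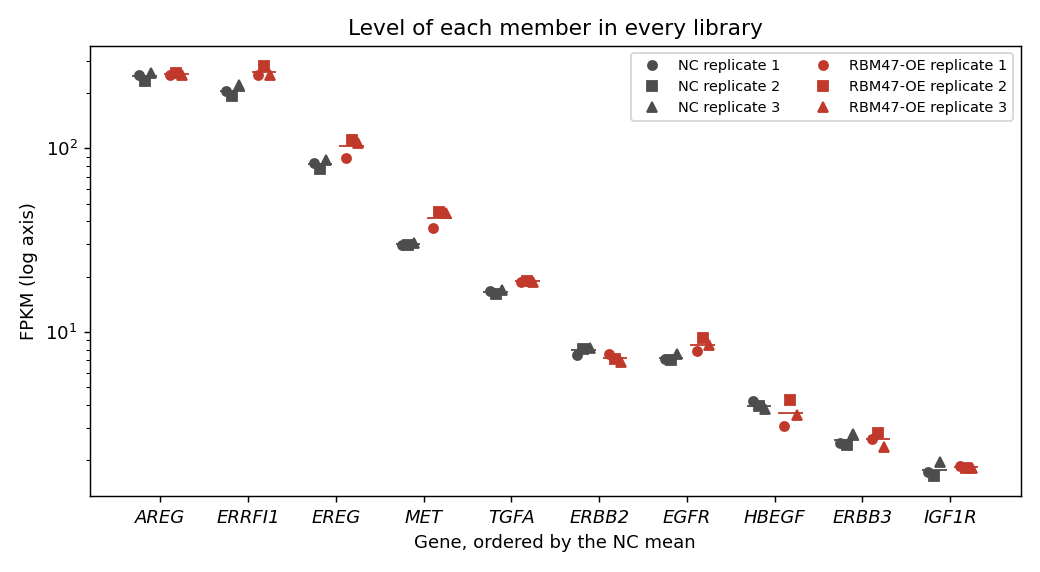
Level of each of the 10 genes in every library, in FPKM on a log axis, with the genes ordered by their NC mean. Points are libraries, grey for NC and red for RBM47-OE, the point shape gives the replicate number, and short lines are the group means. AREG, ERRFI1 and EREG stand far above the receptors, and MET shows the widest gap between the groups.

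FPKM is divided by gene length, so the genes can be ordered by level within a library. In NC the order was AREG, ERRFI1, EREG, MET, TGFA, ERBB2, EGFR, HBEGF, ERBB3 and IGF1R, from 246.1 ± 12.8 (SD, n = 3) to 1.78 ± 0.155 FPKM (SD, n = 3). AREG and ERRFI1 stood above 99.2% and 99.1% of 16368 protein-coding genes in NC, EREG above 97.3% and MET above 92.4%. EGFR, ERBB2 and HBEGF stood above 72.2%, 74.1% and 59.5%, and ERBB3 and IGF1R close to the middle, above 50.7% and 43.98%. ERBB2 and EGFR were the 1 pair of neighbours in this order whose NC libraries overlapped. In RBM47-OE the order changed at these neighbours and at the top. EGFR passed ERBB2 with no overlap between their libraries, and ERRFI1 and AREG, which had been apart in NC, overlapped.

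**Figure D2:**
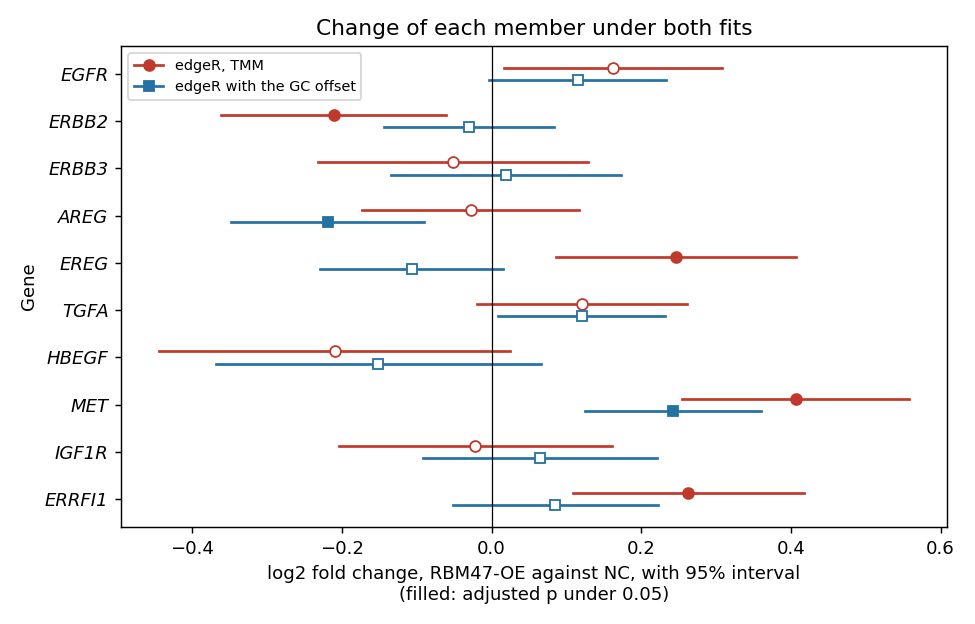
The log2 fold change of RBM47-OE against NC for each gene with its 95% interval, from edgeR with TMM scaling (circles) and with the GC offset (squares), with filled symbols for an adjusted p-value under 0.05. MET lies above 0 in both fits, EREG and AREG move to lower values with the offset, and ERBB2 moves close to 0.

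EGFR, the receptor of EGF, AREG and TGFA among others, had 7.15, 7.02 and 7.59 FPKM in NC replicates 1, 2 and 3 against 7.88, 9.22 and 8.52 in those of RBM47-OE. The groups did not overlap, and of the RBM47-OE libraries replicate 1 was closest to NC. On the log2 scale the difference was 0.16 (95% interval 0.02 to 0.31, standard error 0.071) and missed the threshold (adjusted p = 0.077 in edgeR). Without RBM47-OE replicate 1 it was 0.21 and passed (adjusted p = 0.0061 in edgeR), and DESeq2 on all genes gave 0.17 (adjusted p = 0.049). EGFR was at 0.12 with the GC offset (adjusted p = 0.19 in edgeR) and at 0.02 with an offset for gene length (adjusted p = 0.89 in edgeR). The gene (ENSG00000146648) lies on the plus strand of chromosome 7 of GRCh38 from 55019017 to 55211628, and the antisense gene EGFR-AS1 inside it had 3 to 14 counts, at most 0.409% of those on EGFR.

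ERBB2, the ligand-less partner of the other ERBB receptors, had 7.54, 8.10 and 8.21 FPKM in NC against 7.63, 7.10 and 6.90 in RBM47-OE. These FPKM values overlapped, since RBM47-OE replicate 1 lay above NC replicate 1, whereas in CPM the RBM47-OE libraries (78.9 to 88.9) were separate from the NC libraries (90.8 to 98.2). On the log2 scale ERBB2 changed by -0.21 (standard error 0.073, adjusted p = 0.026 in edgeR). The call was lost in 11 of 19 alternatives, among them those without NC replicate 2 or 3 and without RBM47-OE replicate 2 or 3 (adjusted p = 0.12, 0.13, 0.093 and 0.080 in edgeR). After the GC offset the value was -0.03 (95% interval -0.14 to 0.08). ERBB2 (ENSG00000141736, chromosome 17, 39687914 to 39730426, plus strand) has 57.6% GC in its exons, the highest of the 10, and genes in the same one of 10 equal GC bins had a median of -0.20. ERBB3, which binds neuregulins and has a kinase domain of little activity, had 2.42 to 2.80 FPKM in NC and 2.37 to 2.81 in RBM47-OE. The groups overlapped, and its log2 fold change of -0.05 had a 95% interval from -0.23 to 0.13. The remaining receptor of the family, ERBB4, had at most 8 counts in any library and was not tested.

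A ratio of 2 genes within a library does not depend on how the library was scaled. The ratio of EGFR to ERBB2 in FPKM was 0.948, 0.867 and 0.924 in NC and 1.03, 1.30 and 1.24 in RBM47-OE. The groups did not overlap, with means of 0.913 ± 0.042 and 1.19 ± 0.139 (SD, n = 3 each). EGFR made up 40.0% to 41.6% of the summed FPKM of the 3 receptors in NC and 43.4% to 48.2% in RBM47-OE, and ERBB2 went from 43.9% to 46.2% down to 37.1% to 42.1%. The exons of EGFR have a GC content of 46.7% and those of ERBB2 one of 57.6%, and the part of the libraries' GC trend in this ratio was not tested separately.

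AREG (amphiregulin), a ligand of EGFR with a heparin-binding stretch, had the highest level of the 10 in NC and was second to ERRFI1 by mean in RBM47-OE, at 249, 232.1 and 257.2 FPKM in NC against 251.5, 258.3 and 251.1 in RBM47-OE. The groups overlapped. Its log2 fold change was -0.03 (adjusted p = 0.80 in edgeR), with a 95% interval from -0.17 to 0.12. EREG (epiregulin), which binds EGFR and ERBB4, had 82.8, 77.3 and 86.2 FPKM in NC against 89.0, 111.2 and 107.2 in RBM47-OE. Each RBM47-OE library exceeded each NC library, replicate 1 only just. EREG rose by a log2 fold change of 0.25 (standard error 0.078, adjusted p = 0.015 in edgeR). Without RBM47-OE replicate 1 it was 0.33 (adjusted p = 1.5e-04 in edgeR), and the call was lost without RBM47-OE replicate 2 or 3 or NC replicate 1 or 2 (adjusted p from 0.056 to 0.14 in edgeR).

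AREG and EREG lie close together on the plus strand of chromosome 4, EREG (ENSG00000124882) from 74365145 to 74388749 and AREG (ENSG00000109321) from 74445136 to 74455005 in GRCh38, with 56.4 kb between them. Within each library the ratio of EREG to AREG in FPKM was 0.332, 0.333 and 0.335 in NC and 0.354, 0.431 and 0.427 in RBM47-OE. The NC libraries gave nearly the same ratio, and each RBM47-OE library a higher one. The means were 0.334 ± 0.00135 and 0.404 ± 0.0434 (SD, n = 3 each). By an exact permutation test (two-sided) p was 0.10 for this ratio, the lowest that a design of 3 against 3 can reach, and for each of the other 4 ratios computed (EGFR to ERBB2, ERBB3 to ERBB2, MET to EGFR and ERRFI1 to EGFR). EREG has 36.8% GC in its exons and AREG 42.8%. The median log2 fold change was 0.38 over all genes in EREG's GC bin and 0.22 in AREG's, so both genes lay below these medians. Of the genes in their bins, 25.3% lay below EREG and 15.3% below AREG. Under the GC offset EREG changed sign to -0.11 (adjusted p = 0.25 in edgeR) and AREG came to -0.22 (standard error 0.062, adjusted p = 0.021 in edgeR). The pair therefore changed direction or call with this one choice, EREG from a rise to no call and AREG from no call to a fall.

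**Figure D3:**
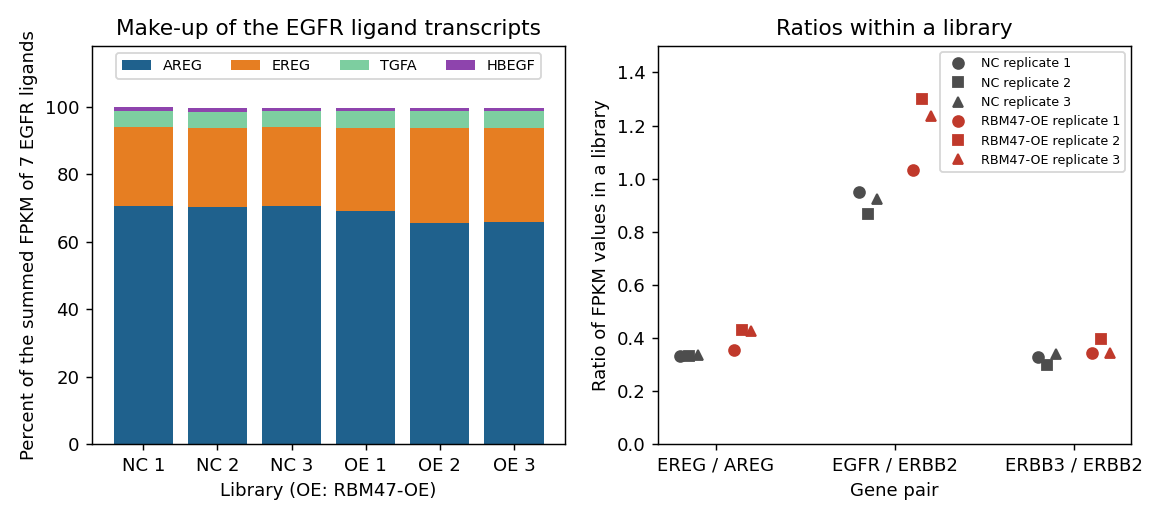
Left, the share of AREG, EREG, TGFA and HBEGF in the summed FPKM of 7 EGFR ligands (the others are EGF, BTC and EPGN) for each library; right, 3 ratios of FPKM values within a library, grey for NC and red for RBM47-OE, with point shape for the replicate. AREG holds 70.3% to 70.5% of the sum in NC and 65.5% to 69.2% in RBM47-OE, and RBM47-OE replicate 1 lies nearest to NC in the ratios of EREG to AREG and of EGFR to ERBB2.

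The stretch before the start site of both genes is shown because the pair shares a strand and a neighbourhood and yet differs in its values. The 150 bases upstream are given 5′ to 3′ on the plus strand (RefSeq, GRCh38.p14), at chr4:74444986-74445135 for AREG and chr4:74364995-74365144 for EREG. Capitals mark matches, on either strand, to TATAAA (the TATA box), CCAAT (the CAAT box), GGGCGG (a GC box), TGACGTCA (the cyclic AMP response element) and TGANTCA (the AP-1 site).
AREG: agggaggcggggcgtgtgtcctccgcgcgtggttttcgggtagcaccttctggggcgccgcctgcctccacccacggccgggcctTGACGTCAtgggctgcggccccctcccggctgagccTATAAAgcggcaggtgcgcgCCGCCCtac
EREG: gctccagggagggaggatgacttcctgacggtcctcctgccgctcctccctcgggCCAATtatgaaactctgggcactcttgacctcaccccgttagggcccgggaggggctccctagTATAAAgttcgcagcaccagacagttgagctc

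Both stretches hold a TATAAA, which 11.5% of 35116 RefSeq promoters of 300 bases do. AREG also holds TGACGTCA, found in 1.85% of promoters, and GGGCGG, found in 45.0%. EREG holds CCAAT, found in 34.6%, and neither holds TGANTCA, found in 7.71%. Of the other members, EGFR, TGFA, HBEGF, MET, IGF1R, ERBB2 and ERRFI1 matched the promoter table, and ERBB3 did not. The promoters of HBEGF, MET and IGF1R, and 1 of the 2 listed for EGFR and for TGFA, held 2 to 5 matches to GGGCGG and 0 to TATAAA. A match is a description of letters, not evidence of binding.

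Messages of short-lived growth factors often carry AU-rich elements in the 3′ untranslated region, built around the pentamer AUUUA, to which proteins that govern RNA decay bind. The member transcripts were searched for ATTTA on the sense strand of the canonical 3′ untranslated region, with overlapping matches counted. AREG has 4 in only 265 bases, and 1.01% of 890 expressed genes with regions of similar length had as many. EREG has 20 in 3941 bases, reached by 4.59% of 1526 genes. TGFA has 13 in 3575 bases (19.7% of 1675 genes had as many), HBEGF 5 in 1456 bases (27.1% of 1885), ERRFI1 5 in 1483 bases (27.4% of 1887) and MET 7 in 2253 bases (30.1% of 1927). The receptors EGFR, ERBB3 and IGF1R have 9, 2 and 12, each at or below the median of similar regions, and ERBB2 has 0. The 30 bases with the most pentamers are shown for this pair of ligands and for MET, the member that rose most, with ATTTA in capitals, all on the plus strand of GRCh38, at chr4:74454939-74454968 for AREG, chr4:74387368-74387397 for EREG and chr7:116797066-116797095 for MET.
AREG: aaataATTTATTTAatATTTAatggaagtg
EREG: ccATTTAtttcATTTAcaaaagATTTAttg
MET: ataATTTAgtcatcatgaaatATTTAgttg

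AREG and EREG, the genes densest in these pentamers among the 10 with 15.1 and 5.08 per kilobase, had log2 fold changes of -0.03 and 0.25. A relation between pentamer density and change was not tested.

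TGFA (transforming growth factor alpha), a ligand of EGFR, had 16.6, 16.1 and 16.8 FPKM in NC against 18.7, 19.1 and 18.8 in RBM47-OE. The groups did not overlap and the RBM47-OE libraries were close together, with means of 16.5 ± 0.388 and 18.9 ± 0.191 (SD, n = 3 each). The log2 fold change was 0.12 in edgeR, with a 95% interval from -0.02 to 0.26 (adjusted p = 0.18). It was 0.12 with the GC offset as well, and library totals or limma on log2(FPKM + 1) gave 0.18, past the threshold (adjusted p = 0.032 in edgeR and 0.027 in limma). HBEGF, a heparin-binding ligand of EGFR and ERBB4, had 4.20, 3.95 and 3.79 FPKM in NC against 3.09, 4.24 and 3.54 in RBM47-OE. RBM47-OE replicates 1 and 3 lay below all NC libraries. Replicate 2 lay above them in FPKM but within their range in CPM (13.67, against 13.14 to 14.65 in NC). HBEGF had a log2 fold change of -0.21 (95% interval -0.44 to 0.03, adjusted p = 0.16 in edgeR).

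The remaining ligands were scarce. BTC (betacellulin), a ligand of EGFR and ERBB4, had 0.47, 0.77 and 0.81 FPKM in NC against 1.10, 1.06 and 1.42 in RBM47-OE, with no overlap. It rose by a log2 fold change of 0.71 (standard error 0.21, adjusted p = 0.010 in edgeR), past the study's thresholds, on at most 121 counts in a library. BTC with the GC offset was at 0.40 and no longer called (adjusted p = 0.23 in edgeR). EGF and EPGN (epigen) had at most 32 and 10 counts and were not tested. The neuregulins NRG1, NRG2 and NRG4, further ligands in the ERBB family, were tested and not called, at log2 fold changes of -0.28, -0.45 and 0.20. The 7 ligands of EGFR summed to 330.2 to 364.8 FPKM in NC and 363.4 to 394.1 in RBM47-OE, with a slight overlap. In this sum the share of EREG was 23.4% to 23.6% in NC and 24.5% to 28.2% in RBM47-OE.

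MET had 29.9, 29.8 and 30.6 FPKM in NC against 36.8, 44.7 and 44.4 in RBM47-OE. Each RBM47-OE library exceeded each NC library, replicate 1 by the least. The counts behind these values were 6618 to 8604 in NC and 9909 to 11186 in RBM47-OE. On the log2 scale MET rose by 0.41 (standard error 0.074, adjusted p = 2.3e-04 in edgeR), with a 95% interval from 0.25 to 0.56. MET was the one member whose call and direction held under all 19 alternatives. The GC offset brought it to 0.24 (standard error 0.057, adjusted p = 0.0063 in edgeR), and it lay above 81.6% of the genes in its GC bin. The ratio of MET to EGFR in FPKM was 4.18, 4.24 and 4.03 in NC and 4.67, 4.85 and 5.21 in RBM47-OE. MET (ENSG00000105976) lies on the plus strand of chromosome 7 from 116672196 to 116798377 and has 21 exons in its canonical transcript. Its ligand HGF had at most 1 count in any library.

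IGF1R, the receptor of insulin-like growth factors, was the lowest of the 10 at 1.73, 1.65 and 1.95 FPKM in NC against 1.87, 1.82 and 1.82 in RBM47-OE. The groups overlapped. Its log2 fold change was -0.02 (adjusted p = 0.88 in edgeR), and the 95% interval from -0.20 to 0.16 covers changes of that size.

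Among the genes whose pattern over the 6 libraries was most like that of MET were CMPK1 and DNM1L, with a Pearson's r of log2 CPM of at least 0.999, out of 10351 genes. EPN1 and MAP2K2 were among those most like ERBB2, at 0.997 each. Such likeness was common, as 1395 genes had an r over 0.95 with MET and 680 with ERBB2, and all of them share the same 6 libraries.

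ERRFI1, which EGFR signalling itself induces, had 204.0, 193.3 and 220.0 FPKM in NC against 249.1, 278.9 and 250.6 in RBM47-OE. The RBM47-OE values exceeded those of NC throughout. Its rise on the log2 scale was 0.26 (standard error 0.075, adjusted p = 0.0080 in edgeR), and the call was lost without NC replicate 2 (0.22, adjusted p = 0.11 in edgeR). ERRFI1 with the GC offset was at 0.09 (95% interval -0.05 to 0.22, adjusted p = 0.44 in edgeR). Relative to EGFR, ERRFI1 was at 28.5, 27.5 and 29.0 times its FPKM in NC and at 31.6, 30.2 and 29.4 times in RBM47-OE. ERRFI1 (ENSG00000116285) lies on the minus strand of chromosome 1 from 8004404 to 8026309, and 43.2% of its exonic bases are G or C.

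**Figure D4:**
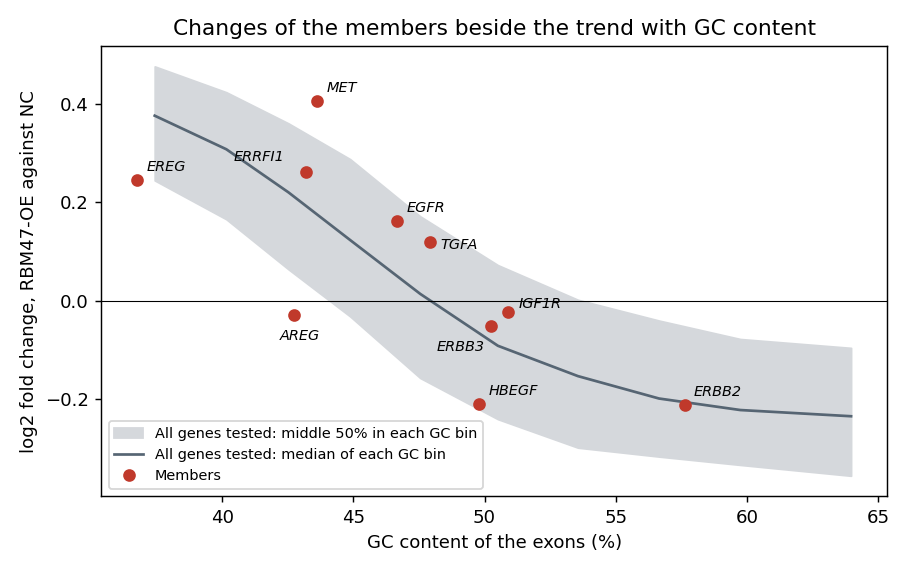
The log2 fold change of each member against the GC content of its exons, over the median (line) and the middle 50% (band) of all genes tested in 10 bins of equal size. MET lies above the band and AREG below it, and ERBB2 lies close to the line.

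Across the 10 members the exonic GC content ran from 36.8% for EREG to 57.6% for ERBB2. The 5 members with a positive log2 fold change, EREG, ERRFI1, MET, EGFR and TGFA, had 36.8% to 47.9% GC, and of the 5 with a negative value AREG had 42.8% and the other 4 had 49.8% to 57.6%. The trend of all genes ran the same way, from a median of 0.38 in the lowest of the 10 GC bins to -0.23 in the highest. The offset also takes away any change in the cells that tracks GC content. Whether the trend came from the cells or from the libraries was not tested.

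Around the members, 146 further genes of the pathway were looked up in 7 lists. Of these 136 were in the count table and 121 were tested, 30 of which rose and 27 fell. Over all genes tested 19.1% were called higher and 16.9% lower. With the GC offset 11 of the list genes were called higher and 9 lower, where 5.97% and 8.57% of all genes were. These shares are the background for each list. Some genes stand in more than one list.

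**Figure D5:**
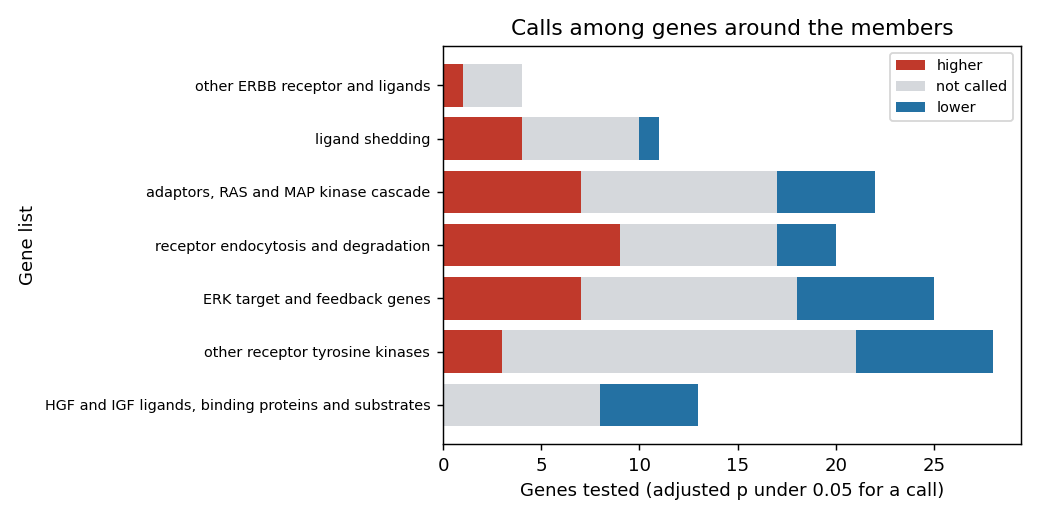
Number of genes tested in each list around the members, split into those called higher, not called and called lower by edgeR (adjusted p-value below 0.05). The lists run from 9 of 20 called higher and 3 lower (endocytosis) to 0 of 13 called higher and 5 lower (HGF and IGF), against 19.1% higher and 16.9% lower over all genes, and with the GC offset, not drawn, these lists had 1 higher and 2 lower and 1 higher and 0 lower.

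Of 11 genes of ligand shedding tested, 4 (36.4%) rose and 1 (9.09%) fell, against 19.1% and 16.9% of all genes, with a median log2 fold change of 0.05 (0.00 over all genes tested). ADAM10, a protease that releases several EGFR ligands, went from 5.02 ± 0.212 to 7.92 ± 1.03 FPKM (SD, n = 3 each), a log2 fold change of 0.58 (standard error 0.079, adjusted p = 2.7e-05 in edgeR) that stayed called with the GC offset at 0.24. NRDC, an enhancer of shedding, rose by 0.40 and ADAM9 by 0.36, and ADAM15 fell by 0.31. ADAM9 and ADAM15 were at -0.003 and -0.10 with the offset and lost their calls, which left 2 genes of the list called higher and 0 lower by edgeR (3 and 0 at an unadjusted p-value under 0.05).

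Of 22 adaptor, RAS and MAP kinase genes 7 (31.8%) rose and 5 (22.7%) fell, against 19.1% and 16.9% of all genes, with a median of 0.09. The GC offset left 1 called higher and 3 lower, with a median of -0.02. HRAS, a small GTPase, went from 24.9 ± 0.323 to 17.97 ± 0.563 FPKM (SD, n = 3 each), with a log2 fold change of -0.54 (adjusted p = 2.7e-05 in edgeR). With 65.6% GC in its exons, HRAS was at -0.33 after the GC offset and still called. RPS6KA3, a kinase below ERK, rose by 0.44 and PTPN11, the phosphatase SHP2, by 0.34, and ARAF fell by 0.37 and RPS6KA1 by 0.26. With the offset PTPN11 and ARAF stayed called, at 0.18 and -0.24, and RPS6KA3 and RPS6KA1 lost their calls.

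Of 20 genes of receptor endocytosis and degradation 9 (45%) rose and 3 (15%) fell, against 19.1% and 16.9% of all genes, with a median of 0.17. The largest rises were those of STAM2 (0.53), USP8 (0.44) and EPS15 (0.43), which sort ubiquitin-marked receptors or strip their ubiquitin, and AP2M1 (-0.32), EPN1 (-0.30) and HGS (-0.25) fell. With the offset STAM2, USP8, EPS15 and HGS lost their calls, and AP2M1 and EPN1 kept theirs, both at -0.18. In all 1 gene of this list was called higher with the offset and 2 lower, where 5.97% and 8.57% of all genes were. The gene called higher was SH3KBP1, at 0.22 (chosen after its values were seen). The median of the list came to 0.03.

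Of 25 ERK target and feedback genes 7 rose and 7 fell (28.0% each, against 19.1% and 16.9% of all genes), with a median of -0.002. FOSL1, an AP-1 subunit that ERK signalling raises, went from 51.8 ± 1.73 to 39.3 ± 2.47 FPKM (SD, n = 3 each), with a log2 fold change of -0.47 (adjusted p = 6.1e-05 in edgeR). DUSP7, a phosphatase of ERK, fell by 0.54 and EPHA2 by 0.35. FOSL1 and DUSP7 stayed called with the GC offset, at -0.27 and -0.35. The genes that rose most were EPHA4 (0.56), SOCS5 (0.52) and SPRED1 (0.43), and SOCS5 stayed called with the offset, at 0.27. In all 5 of the 25 were called higher with the offset and 2 lower, where 5.97% and 8.57% of all genes were.

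Of 28 other receptor tyrosine kinases tested, 3 (10.7%) rose and 7 (25.0%) fell, against 19.1% and 16.9% of all genes. Their median of -0.17 came to 0.03 with the offset, which left 1 called higher and 2 lower. AXL went from 11.0 ± 0.476 to 8.72 ± 0.304 FPKM (SD, n = 3 each), with a log2 fold change of -0.41 (adjusted p = 2.2e-04 in edgeR), and TYRO3, of the same family, fell by 0.38. Both stayed called with the offset, at -0.26 and -0.25. Besides EPHA4, ROR1 rose by 0.40 and RYK by 0.33, and neither was called with the offset.

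Of 13 genes around HGF and the insulin-like growth factors 0 rose and 5 (38.5%) fell in edgeR, against 19.1% and 16.9% of all genes, with a median of -0.15. At an unadjusted p-value under 0.05 in edgeR 1 was higher, and DESeq2 called 0 higher. IGFBP2, which binds insulin-like growth factors, fell by 0.30. ST14 (matriptase), a protease that activates HGF, fell by 0.29, and its inhibitor SPINT1 by 0.27. With the offset 0 of the 13 were called lower by edgeR (1 at an unadjusted p-value under 0.05), 1 gene was called higher, IGF2 at 0.27 (chosen after its values were seen), and the median was -0.03.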

How the data were processed

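The members and the lists were chosen with earlier results of these data known. The deposited counts are uniquely mapped reads per gene, which the authors obtained after trimming with FASTX-Toolkit and alignment to GRCh38 with HISAT2, without normalization. The authors also deposited FPKM, computed from these reads and rounded to 2 decimals. The counting tool, the annotation release and the use of strand are not given in the sources used here. Counts were tested with edgeR 4.0.16 in R 4.3.3 (filterByExpr with a minimum count of 10 and a minimum total of 15, TMM, quasi-likelihood F test, condition as the only term), with Benjamini-Hochberg adjustment over all 16260 genes tested. A standard error is the absolute log2 value over the root of the F statistic, and 95% intervals use the fit's degrees of freedom. The depth of 26792409 to 35477983 counts left at least 340 counts on every member in every library.

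Exonic GC content and coordinates came from GENCODE 44 and hg38, which share the build of the deposited counts, matched by gene identifier for 28401 genes. The GC offset was a loess curve (span 0.3) per library. Of each list, up to 3 genes per direction with the largest change among those called, with a mean log2 CPM of at least 0, were named, and single uncalled ligands and receptors were named after their values were seen. Genes most alike in pattern were sought at a mean log2 CPM of at least 3. Promoters came from RefSeq, and 3′ regions were compared with those of 0.8 to 1.25 times their length in genes with at least 10 counts in every library.

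Alternatives were DESeq2 1.42.0, RLE factors, library totals, other filters, the replicate number as a block, GC and length offsets, limma 3.58.1 on log2(FPKM + 1) and log2(FPKM + 0.1) at a mean FPKM of at least 0.1 or unfiltered, and each library left out in turn. Splicing was not analysed here. Some genes that the naming rule selected are not reported here.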

Additional observations from a re-analysis of the deposited data

How the results depend on the processing

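Over the 10 log2 fold changes, 138 of 190 values under the alternatives kept the direction and side of the threshold. Another 19 kept the direction and lost the call, 9 kept the direction and gained a call, and 24 changed sign. Among those 24, EREG with the GC offset, without and with the replicate block, also lost its call (adjusted p = 0.25 and 0.39 in edgeR). MET, HBEGF, TGFA, EGFR, ERBB2 and ERRFI1 kept their direction throughout. The count of members past the study's thresholds was 0 in every alternative. With the GC offset 1 member was called higher, 11 list genes higher and 9 lower, and EREG was at -0.11, ERBB3 at 0.0188 and IGF1R at 0.0642. With that offset and the replicate block together 1 member was called higher, 12 list genes higher and 7 lower, and EREG was at -0.11, ERBB3 at 0.0197 and IGF1R at 0.0662. Library totals gave 5 members higher and 0 lower, with ERBB3 at 0.0115, AREG at 0.0343 and IGF1R at 0.0396. limma on log2(FPKM + 1) gave 0 members and 14 list genes lower, with ERBB3 at 0.0131, AREG at 0.0448 and IGF1R at 0.0323. On log2(FPKM + 0.1) it gave 0 and 14, with ERBB3 at 0.0173, AREG at 0.045 and IGF1R at 0.0485. Without a filter on FPKM it gave 0 members lower, 14 list genes higher and 7 lower, with ERBB3 at 0.0131, AREG at 0.0448 and IGF1R at 0.0323. The length offset put AREG at 0.06. The cause was not tested. With each library left out in turn, 1 to 4 members were called higher and 0 to 1 lower, and 18 to 32 list genes higher and 15 to 36 lower. Across these fits ERBB3 ranged from -0.0968 to 0.0136, AREG from -0.0706 to 0.0033 and IGF1R from -0.0748 to 0.0467, each highest without NC replicate 3. ERBB3 was also positive without RBM47-OE replicate 3 (0.0104) and IGF1R without RBM47-OE replicate 2 (0.0027). The lowest count of members called higher, 1, came without NC replicate 2, and 0 members were called lower without NC replicate 2 or 3 or RBM47-OE replicate 2 or 3. Over all genes tested, 3100 were higher and 2740 lower, against 971 and 1393 with the GC offset and 1410 and 908 in unfiltered limma.

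No pairing by replicate number was seen: the correlation of same-numbered libraries' deviations from their group means was -0.060, -0.015 and -0.016. With 3 libraries per group such values cannot exclude that same-numbered samples were handled together, which the labels do not say. The fit with the replicate block left ERBB2 uncalled (adjusted p = 0.051 in edgeR), so that 0 members were called lower. At this depth and number of libraries the 95% intervals of the members reached 0.14 to 0.23 to either side of the log2 fold change.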
